A study of Homo sapiens with 18 samples.

Results

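The kinesin genes are 41 of the 21944 genes with an estimate in the data. They were chosen by name alone, as every gene whose symbol is KIF or KIFC followed by a number and up to 2 of the letters A to C. By textbook role 13 of them act mainly in mitosis, 15 mainly in the transport of cargo, 6 in cilia, and 7 were left as other because their role is mixed or less clear. The 41 genes fill 120 rows, since 39 were listed at all 3 times. *KIF4B* was listed only at 6 h, and *KIF25* at 3 and 6 h. *KIF2B*, a mitotic microtubule depolymerase, had no row.

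The cells were pancreatic progenitors differentiated from human embryonic stem cells up to day 19. The paper and the growth protocol name the SA121-derived NGN3-GFP reporter line, while the cell line label of the samples names HUES4. All 6 groups were detached with accutase and reseeded, either on fibronectin (FN, the control) or on the laminin isoform LN411, and harvested after 3, 6 or 24 h, with 3 samples in each group. Poly(A) RNA was sequenced from whole wells, and the comparison asks how LN411 changes transcript levels relative to FN at each time. The cells are an in vitro model of pancreatic progenitors made from a stem cell line.

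Kinesins are motor proteins that use ATP to walk along microtubules or, in some families, to take microtubule ends apart. In dividing cells they slide spindle microtubules, align chromosomes and build the midzone where the cell is cut. In non-dividing cells they carry vesicles, mitochondria and mRNA towards the cell periphery, and in cilia they supply and regulate the axoneme. The transcripts of most mitotic kinesins rise in the G2 and M phases of the cell cycle, while *KIF5A*, *KIF5C* and *KIF1A* are best known from neurons and other secretory cells.

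The estimates are log2 fold changes of LN411 over FN with their standard errors (SE), so a negative value means a lower transcript level on LN411. Genes with an adjusted p under 0.05 are referred to as called. The mean normalized count is an average over all 18 samples with no spread, and values of single samples were not analysed here. Library depth is therefore unknown, and the standard error carries the spread between replicates. The labelled cell type was checked on 12 progenitor markers. All 12 were listed, from *PTF1A* at a mean normalized count of 12.5 to *EPCAM* at 69597, with *PDX1* at 12933. Of 8 mesenchymal markers 7 were listed, with *COL1A2* at 45110, and of 5 endothelial markers 3 were listed at 24 h, none of them with a mean normalized count over 100. Of 10 neuronal markers 7 were listed at 3 h and 5 at 24 h. At both times 2 of them had a mean normalized count over 100, the highest at 975. Because the samples are bulk RNA, fewer cells of a type and less RNA per cell cannot be told apart in any result below.

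At 24 h far more kinesin transcripts were called lower than higher on LN411. Of the 39 kinesin genes tested, 17 were called lower, 2 were called higher (*KIF19* and *KIF3C*), and 20 did not pass the test. Among all 19569 genes tested at 24 h, 29.5% were called, 16.7% higher and 12.8% lower. The median kinesin log2 fold change was -0.18, and 31 of the 39 values were below 0 (79.5%). Over all genes the median was 0.012, with 47.6% of values below 0. No test was run of the kinesins as a set, and they come from the same 18 libraries, so their values are not independent of each other.

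**Figure D1:**
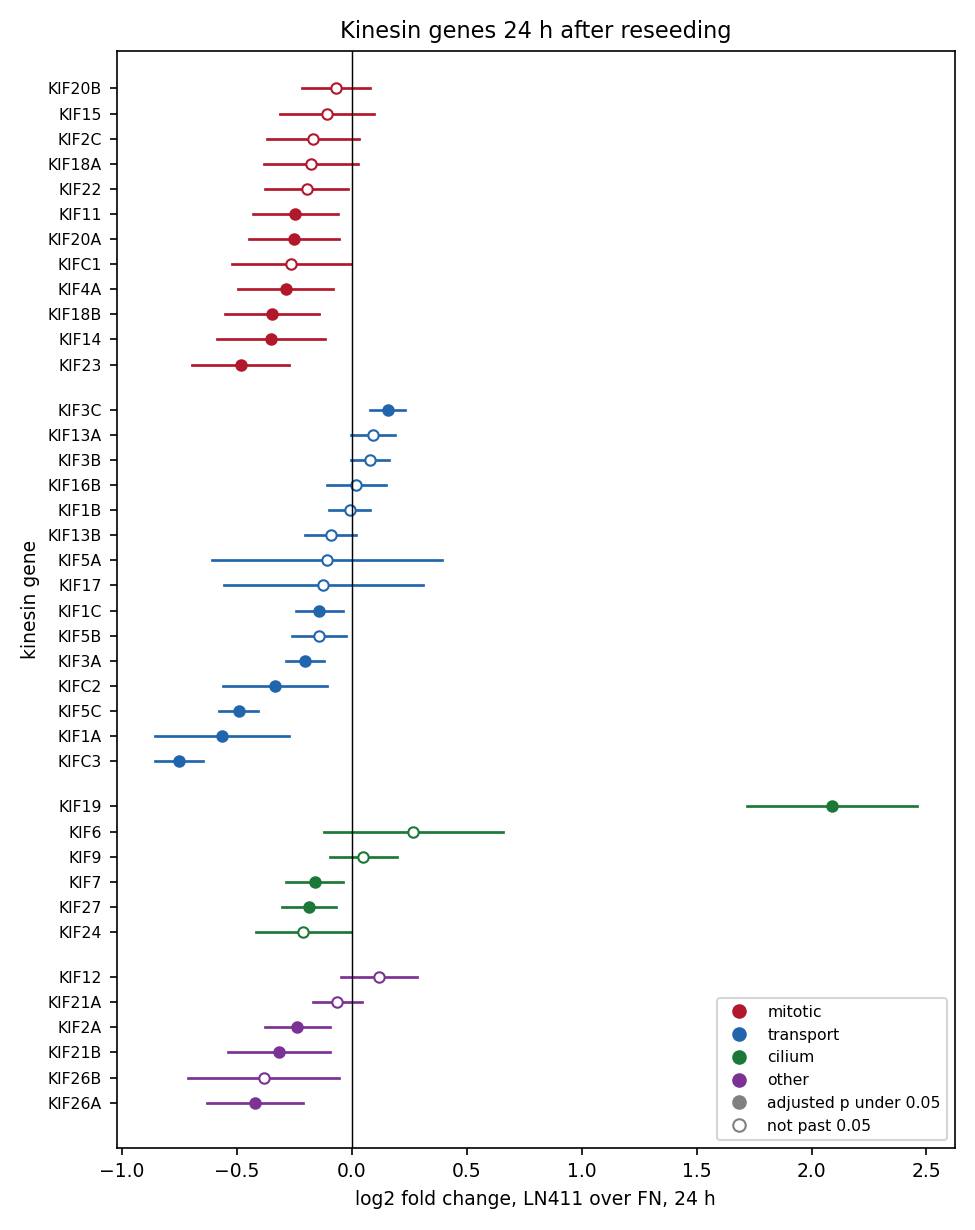
Log2 fold change of LN411 over FN at 24 h (x axis) for the 39 kinesin genes listed at that time (y axis), grouped by role, with 95% confidence intervals as bars and filled points for called genes. All 12 mitotic kinesins lie to the left of 0, and *KIF19* stands far to the right at 2.09.

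All 12 mitotic kinesins tested had values below 0 at 24 h. Of these, 6 were called lower and 0 higher, also at an unadjusted p under 0.05, where 8 were lower. Their log2 fold changes ran from -0.48 to -0.070, with a median of -0.25. The 12 genes had mean normalized counts from 322 to 1762, and among the 4761 genes in that range 16.0% were called lower, the median was 0.029 and 43.4% of values were below 0. When the statistic was read against a t distribution (12 degrees of freedom), 2 of the 6 calls remained (*KIF23* and *KIF18B*).

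*KIF23*, the MKLP1 subunit of the centralspindlin complex that builds the spindle midzone, had the largest mitotic difference, at -0.48 (SE 0.11, adjusted p = 5.38e-05), so that its transcript level decreased by 28.5% on LN411. *KIF18B*, which controls the length of astral microtubules, was at -0.35 (SE 0.10, adjusted p = 0.00449). *KIF14*, a cytokinesis kinesin, was at -0.35 (SE 0.12, adjusted p = 0.0137). The intervals of these 3 genes overlapped, so the order of the values within the group is not resolved.

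The remaining mitotic calls were closer to the threshold. *KIF4A*, a chromokinesin that also acts at the midzone, was at -0.29 (adjusted p = 0.0242). *KIF11* (Eg5), which pushes spindle poles apart, was at -0.25 (adjusted p = 0.0348). *KIF20A* (MKLP2), which brings the chromosomal passenger complex to the midzone, was at -0.25 (adjusted p = 0.0424). Each of these 3 lost its call under the t distribution and at an adjusted p limit of 0.01, and so did *KIF14*.

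The other mitotic kinesins did not pass the test, with values of the same sign. *KIFC1*, a minus-end motor that focuses spindle poles, was at -0.27 (adjusted p = 0.121). *KIF22* (Kid), a chromokinesin that pushes chromosome arms, was at -0.20 (adjusted p = 0.0934). *KIF18A*, which dampens chromosome oscillations, was at -0.18 (adjusted p = 0.201), and *KIF2C* (MCAK), a centromeric depolymerase, was at -0.17 (adjusted p = 0.216). *KIF15*, which backs up *KIF11* in the spindle, was at -0.11, with a 95% interval from -0.31 to 0.098. *KIF20B*, a cytokinesis kinesin, was nearest to 0 at -0.070, with an interval from -0.22 to 0.077.

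The precision of the mitotic kinesins was lower than that of other genes of like level. The SE of all 12 exceeded the median SE of genes of like mean normalized count, by a factor of 1.11 to 1.72 with a median of 1.41. Among the 15 transport kinesins the same factor was above 1 for 8, with a median of 1.03. It was above 1 for all 6 of the other kinesins too, with a median of 1.22, and for 3 of 6 cilium kinesins. *KIF4A* and *KIF4B* are near-identical copies, so reads of one may have been counted for the other or dropped. *KIF23* shares 3.51% of its exonic bases with an antisense transcript, and whether counting used the strand is not given in the sources used here.

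Mitotic genes are known to share promoter elements, the CHR (TTTGAA or its variants TTTAAA and TTCGAA) and CCAAT boxes, so these letters were searched on both strands. The RefSeq promoters on GRCh38.p14, from 250 bases before to 50 bases after the transcript start, were matched by gene for 33 of the 41 kinesins. Shown here are the 120 bases from 100 before to 20 after the start for the 6 mitotic kinesins called lower at 24 h and, as a contrast chosen after the values were seen, for *KIF5C*. The same *KIF5C* promoter holds a CCAAT at base -222 from the start, outside the bases shown, and another *KIF5C* promoter is not shown. Capitals mark the letters of a CHR, its variants or a CCAAT box on either strand, so that ATTGG is CCAAT on the other strand. Each is written 5′ to 3′ on the strand of the gene.
KIF23, chr15:69414249-69414368, plus strand: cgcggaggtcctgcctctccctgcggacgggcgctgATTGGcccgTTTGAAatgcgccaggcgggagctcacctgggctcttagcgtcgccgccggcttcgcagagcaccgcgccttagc
KIF18B, chr17:44947754-44947873, minus strand: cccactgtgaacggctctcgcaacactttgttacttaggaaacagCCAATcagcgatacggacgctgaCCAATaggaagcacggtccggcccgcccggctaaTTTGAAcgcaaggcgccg
KIF14, chr1:200620732-200620851, minus strand: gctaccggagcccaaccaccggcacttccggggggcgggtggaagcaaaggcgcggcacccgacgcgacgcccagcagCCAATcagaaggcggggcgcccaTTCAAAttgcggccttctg
KIF4A, chrX:70290004-70290123, plus strand: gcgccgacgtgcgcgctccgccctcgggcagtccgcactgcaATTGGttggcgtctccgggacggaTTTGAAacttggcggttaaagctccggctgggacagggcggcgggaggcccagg
KIF11, chr10:92593030-92593149, plus strand: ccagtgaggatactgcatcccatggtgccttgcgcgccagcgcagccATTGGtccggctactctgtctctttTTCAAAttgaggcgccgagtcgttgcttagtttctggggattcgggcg
KIF20A, chr5:138179012-138179131, plus strand: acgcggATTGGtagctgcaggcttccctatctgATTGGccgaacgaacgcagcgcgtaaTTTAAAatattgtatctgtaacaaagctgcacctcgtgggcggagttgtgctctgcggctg
KIF5C, chr2:148875127-148875246, plus strand: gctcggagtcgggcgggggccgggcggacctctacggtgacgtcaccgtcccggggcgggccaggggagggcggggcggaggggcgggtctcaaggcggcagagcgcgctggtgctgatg

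Within these 120 bases a CCAAT lies before the TTTGAA or TTTAAA in each of the 6 called mitotic kinesins. Across the full windows TTTGAA was found for 10 of 13 mitotic kinesins, against 1 of 11 transport kinesins and 18.2% of the 27305 genes with a promoter. CCAAT was found for 11 of 13 mitotic and 4 of 11 transport kinesins, against 39.7% of all genes, and both together for 9 of 13 and 1 of 11, against 7.26%. TTTAAA was found for 4 of 13 mitotic kinesins and 14.5% of all genes, and TTCGAA for 1 of 13 and 1.82%. From 100 bases before to 20 after the start, TTTGAA was found for 9 mitotic and 0 transport kinesins. In these bases TTTGAA and CCAAT were both found for 8 kinesins, all of them mitotic. The first bases of the nearest pair were 9 to 50 bases apart, with a median of 24.5. The cilium kinesin *KIF24* held the variant TTCGAA at base 2, with CCAAT at bases -47 and -100. Across the full windows TTTGAA was found for 0 of 4 cilium and 0 of 5 other kinesins. CCAAT was found for 2 of 4 and 1 of 5. TTTGAA was found for 5 of the 6 called mitotic kinesins and for 5 of the 7 others, which include *KIF4B*, not tested at 24 h. For CCAAT these counts were 6 of 6 and 5 of 7, and for TTTAAA 3 of 6 and 1 of 7. The TTTAAA of *KIF14* and of *KIF23* lay far from the start, at bases -198 and -211. TTTGAA or one of its variants was found for 6 of 6 called and 7 of 7 other mitotic kinesins, so its presence does not separate them. No match of different letters shared bases, and a match is only a match of letters.

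The transport kinesins moved in both directions at 24 h. Of the 15 tested, 6 were called lower, 1 was called higher and 8 did not pass, with values from -0.75 to 0.16 and a median of -0.12. Their mean normalized counts ran from 53.4 to 21346, a range in which 15.8% of 14071 genes were called lower, with a median of 0.018 and 46.0% of values below 0. Its lowest value was further from 0 than that of the mitotic kinesins and its median was closer to 0, but the intervals of *KIFC3* and *KIF23* overlapped. The difference between the groups was not tested, because their members are not replicates.

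*KIFC3*, a minus-end motor known from epithelial junctions and the Golgi, had the largest lower value, at -0.75 (SE 0.053, 95% interval -0.86 to -0.65, adjusted p = 5.37e-44). On LN411 its transcript level decreased by 40.6%. *KIFC2*, its relative, was at -0.33 (SE 0.11, adjusted p = 0.0149) and lost its call under the t distribution. *KIFC2* also shares 17.8% of its exonic bases with the antisense gene *FOXH1*, and *KIFC3* shares 4.59% with an antisense long noncoding RNA.

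The KIF5 genes encode the heavy chain of conventional kinesin. *KIF5C* was at -0.49 at 24 h (SE 0.043, 95% interval -0.58 to -0.41, adjusted p = 2.54e-29), so that its transcript level decreased by 29.0% on LN411. *KIF5B*, the ubiquitous member, was at -0.15 (SE 0.060, adjusted p = 0.0510), just outside the threshold. It was called under 2 alternatives, with an adjusted p of 0.0490 with one filter on the mean count at all times and 0.0474 with GC content and length trends removed. *KIF5A* was at -0.11 (SE 0.25, 95% interval -0.61 to 0.39, adjusted p = 0.808), too imprecise to place against either. The interval of *KIF5C* did not overlap that of *KIF5B*, which ran from -0.26 to -0.028.

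The KIF1 genes carry synaptic vesicle precursors, dense-core vesicles and mitochondria. *KIF1A* was at -0.57 (SE 0.15, adjusted p = 0.000852). Its SE was 3.39 times the median of 0.0438 over the 924 genes of like level, wider than 99.1% of them, so its size is known less well than its level would give. *KIF1C* was at -0.14 (SE 0.053, adjusted p = 0.0265) and lost its call under the t distribution. *KIF1B* was at -0.010 (SE 0.045, adjusted p = 0.901), with a 95% interval from -0.099 to 0.078.

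The KIF3 genes form the heterotrimeric kinesin-2 motor, in which *KIF3A* pairs with *KIF3B* or *KIF3C*. *KIF3A* was called lower, at -0.21 (SE 0.042, adjusted p = 9.98e-06). *KIF3C* was called higher, at 0.16 (SE 0.039, adjusted p = 0.000398), and *KIF3B* was at 0.078 (SE 0.042, adjusted p = 0.160). The intervals of *KIF3A*, from -0.29 to -0.12, and of *KIF3C*, from 0.080 to 0.23, lay on opposite sides of 0. The remaining transport kinesins, *KIF13A*, *KIF13B*, *KIF16B* and *KIF17*, which carry endosomes, membrane receptors and other vesicles, had values between -0.12 and 0.092, and none passed.

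The cilium kinesins held the largest change of all kinesins. *KIF19*, which trims the tips of motile cilia, was higher on LN411 at 24 h by 2.09 on the log2 scale (SE 0.19, 95% interval 1.72 to 2.46, adjusted p = 9.51e-27), a 4.25-fold difference. Its mean normalized count was low, at 112. Of the others, *KIF27*, a relative of *KIF7*, was called lower at -0.19 (SE 0.060, adjusted p = 0.00920), and *KIF7*, a Hedgehog pathway regulator at the cilium tip, at -0.16 (SE 0.063, adjusted p = 0.0347). *KIF7* lost its call under the t distribution and shares 10.8% of its exonic bases with the antisense gene *TICRR*. *KIF24* at -0.21, *KIF6* at 0.27 and *KIF9* at 0.050 did not pass.

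Among the other kinesins 3 of 6 were called lower and 0 higher at 24 h, with a median of -0.28. At an unadjusted p under 0.05 these counts were 4 and 0. Over all genes 12.8% were called lower and 16.7% higher, with a median of 0.012. *KIF26A*, an atypical kinesin without motor activity, was at -0.42 (SE 0.11, adjusted p = 0.000472). *KIF2A*, a microtubule depolymerase of spindles and axons, was at -0.24 (SE 0.072, adjusted p = 0.00468), and it shares 18.7% of its exonic bases with the antisense gene *DIMT1*. *KIF21B*, which limits microtubule growth, was at -0.32 (SE 0.11, adjusted p = 0.0209) and lost its call under the t distribution and with GC content and length trends removed. *KIF26B* was at -0.38 (adjusted p = 0.0690), *KIF12* at 0.12 and *KIF21A* at -0.064, and none of these passed.

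At 3 h no kinesin was called, of 39 tested in the authors' DESeq2 fit, and 1 had an unadjusted p under 0.05. That gene was *KIF20A*, at 0.22 (adjusted p = 0.916), and over all genes 0.383% of 17487 were called. At 6 h 1 of 36 was called, against 8.23% of 12943 genes. *KIF5C* was then higher on LN411, by 0.14 (SE 0.042, 95% interval 0.057 to 0.22, adjusted p = 0.0170), or 10.2%, and with the t distribution its adjusted p was 0.114. *KIFC3* was at -0.14 (adjusted p = 0.0606), and it passed with GC content and length trends removed (adjusted p = 0.00901). The mitotic kinesins had a median of 0.011 at 3 h and -0.0090 at 6 h, and the transport kinesins 0.047 and -0.029. *KIF5A*, *KIF17* and *KIF6*, with mean normalized counts of 54.5, 53.4 and 52.2, had no adjusted p at 6 h.

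The change between times was tested gene by gene. From 6 to 24 h the log2 fold change of 6 of 39 kinesins differed, against 12.8% of 18975 genes, and from 3 to 24 h that of 10 of 39, against 17.0% of 18820. From 3 to 6 h it was 0 of 40, with 2 at an unadjusted p under 0.05, against 0.257% of 19875. *KIF5C* went from 0.069 at 3 h to 0.14 at 6 h and -0.49 at 24 h. From 6 to 24 h its difference was -0.63 (SE 0.060, adjusted p = 8.27e-24). That test is of the fall, while the change of sign rests on the 6 h value. The 6 h call was lost under the t distribution (adjusted p = 0.114) and at an adjusted p limit of 0.01. *KIFC3* fell further between 6 and 24 h, by 0.61 (adjusted p = 1.83e-14). *KIF19* was at 0.38, -0.14 and 2.09 at the 3 times, and gained 2.23 from 6 to 24 h (adjusted p = 4.65e-12). *KIF1A* differed by -0.57 and *KIF20A* by -0.40, both with an adjusted p of 0.0497, and *KIF2A* by -0.28 (adjusted p = 0.0457).

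**Figure D2:**
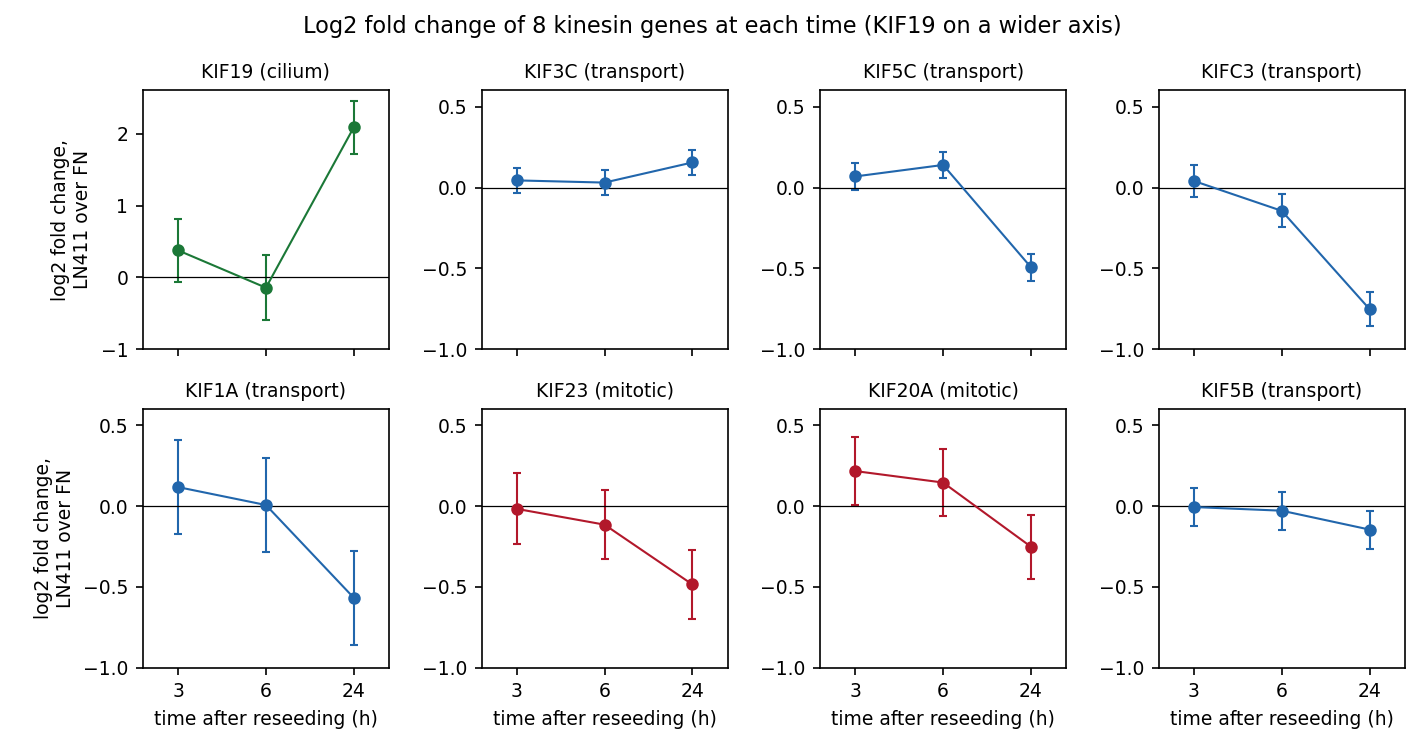
Log2 fold change of LN411 over FN (y axis) at 3, 6 and 24 h (x axis) for 8 kinesin genes chosen after their values were seen, with 95% confidence intervals; the y axis of *KIF19* is wider than the others. The intervals of *KIF5C* lie above 0 at 6 h and below 0 at 24 h.

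By role, the differences from 3 to 24 h were 2 of 12 mitotic, 4 of 15 transport, 2 of 6 cilium and 2 of 6 other kinesins, so that the mitotic share was close to the 17.0% of all genes. The mitotic genes were *KIF23*, at -0.47, and *KIF20A*, at -0.47. For the other 10 mitotic kinesins a difference between these times did not pass the test, which does not show that their effect was the same at both.

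Transcripts of transport kinesins were the most abundant per length. The mean normalized count per kilobase of transcript was 3639 for *KIF5B*, 1943 for *KIF3B*, 1423 for *KIF1C*, 1155 for *KIFC3* and 1103 for *KIF3C*. *KIF5B* alone made up 19.1% of the sum over the 41 kinesins. *KIF5C* ranked 12 at 617 per kilobase and *KIF5A* was at 9.44, so the KIF5 family was led by its ubiquitous member. The transport kinesins held 70.9% of the summed level per kilobase, the mitotic 15.5%, the other 9.71% and the cilium kinesins 3.87%. The highest mitotic kinesins were *KIF22* at 619 and *KIF11* at 351, and *KIF19* was at 30.8. These levels are averages over both matrices and all times, without a spread, so neighbours in the order were not compared.

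**Figure D3:**
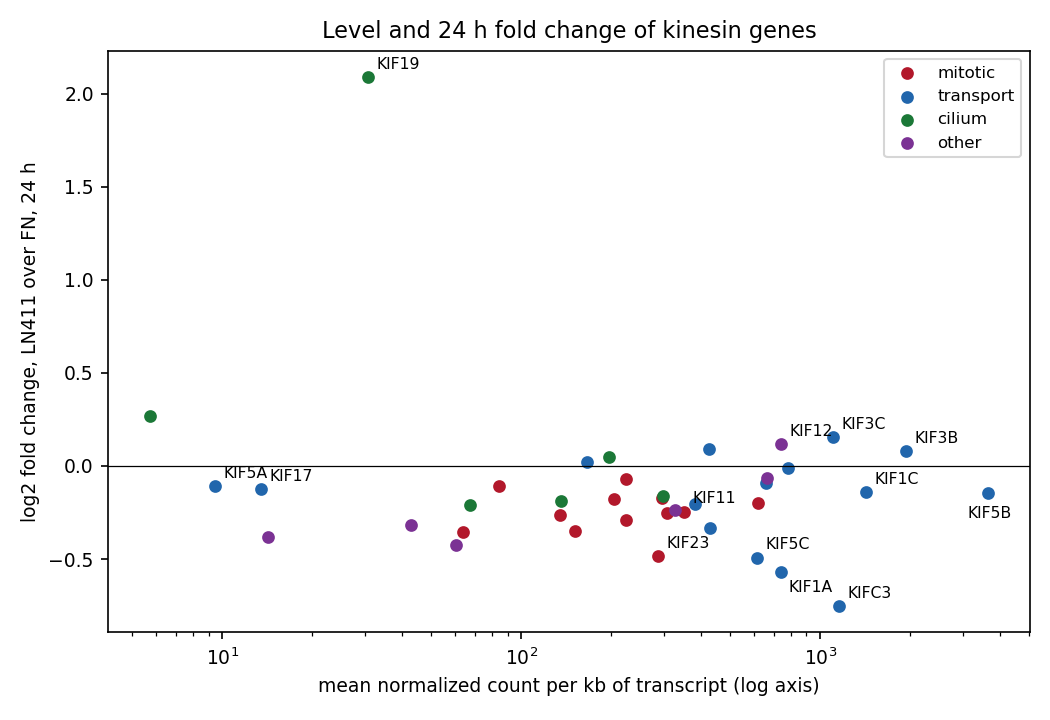
Log2 fold change of LN411 over FN at 24 h (y axis) against the mean normalized count per kilobase of transcript on a log axis (x axis), one point per kinesin gene, coloured by role. *KIF19* combines a low level of 30.8 with the largest change, and *KIFC3* a high level of 1155 with the largest lower value.

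Most partners of the mitotic kinesins also had values below 0 at 24 h. Of 29 spindle and midzone genes 12 were called lower and 0 higher, with 28 values below 0 and a median of -0.23, where 12.8% of all genes were called lower and 16.7% higher. *RACGAP1*, which joins *KIF23* in centralspindlin, was at -0.29 (adjusted p = 0.00569), *ECT2*, the exchange factor they recruit, at -0.27 (adjusted p = 0.00113), and *TPX2*, a spindle assembly factor, at -0.27 (adjusted p = 0.00845). Of 35 regulators of the cell cycle 13 were called lower (37.1%) and 2 higher (5.71%), with a median of -0.14. The 3 with the smallest p were *CDKN2B*, at -0.69, *CDKN1A*, at -0.47, and *CDKN1B*, at 0.68, all 3 inhibitors of cyclin-dependent kinases. At 6 h 4 of 32 regulators were called higher and 2 lower, where 8.23% of all genes were called, and at 3 h 1 of 34 was called lower, where 0.383% of all genes were called.

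The partners of transport kinesins had calls in both directions. Of 21 cargo adaptors 6 were called lower (28.6%, against 12.8% of all genes) and 4 higher (19.0%, near the 16.7% of all genes), with a median of -0.0040. The 3 with the smallest p were all lower. *KLC2*, a light chain of conventional kinesin, was at -0.32, *KIFBP*, which binds and inhibits several kinesins, at -0.24, and *MAPK8IP3* (JIP3), a cargo adaptor, at -0.31. Among the 4 called higher were *KLC4*, another light chain, at 0.29 (adjusted p = 0.00107), and *KIFAP3*, at 0.16 (adjusted p = 0.00852). Of 24 dynein and dynactin genes, which drive the opposite direction of transport, 5 were called lower and 2 higher, a share near the 29.5% of all genes called, led by *DYNLT1* at -0.24, *DCTN4* at 0.16 and *DYNC1LI2* at -0.11. Of 21 genes of neurosecretory transport 6 were called lower and 6 higher (28.6% each), with *STMN2* at -1.06, *SYT13* at -0.53 and *DCX* at 0.79.

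Markers of endocrine progenitors were also called higher on LN411. Of 9 listed at 24 h 8 were called higher and 0 lower, with values from 0.59 to 2.54 and a median of 1.54. Over all genes 16.7% were called higher and 12.8% lower at 24 h. Before that, 1 of 9 endocrine progenitor markers tested was called higher at 3 h and 2 of 4 at 6 h. Over all genes 0.383% were called at 3 h and 8.23% at 6 h. Of the progenitor markers 4 of 11 were called higher at 6 h. At that time 0 of 12 mitotic kinesins were called, also at an unadjusted p under 0.05. The median SE at 6 h was 0.107 for the mitotic kinesins and 0.057 for the progenitor markers, so these counts differ in precision. At 24 h 5 of the 12 progenitor markers were called higher and 0 lower, of 7 mesenchymal markers 2 higher and 1 lower, of 5 neuronal markers 1 higher and 0 lower, and of 3 endothelial markers 0. The neuronal genes *ELAVL3*, *ELAVL4*, *RBFOX3* and *SLC17A6* were not listed at 24 h. The part of these markers in the kinesin differences was not tested.

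**Figure D4:**
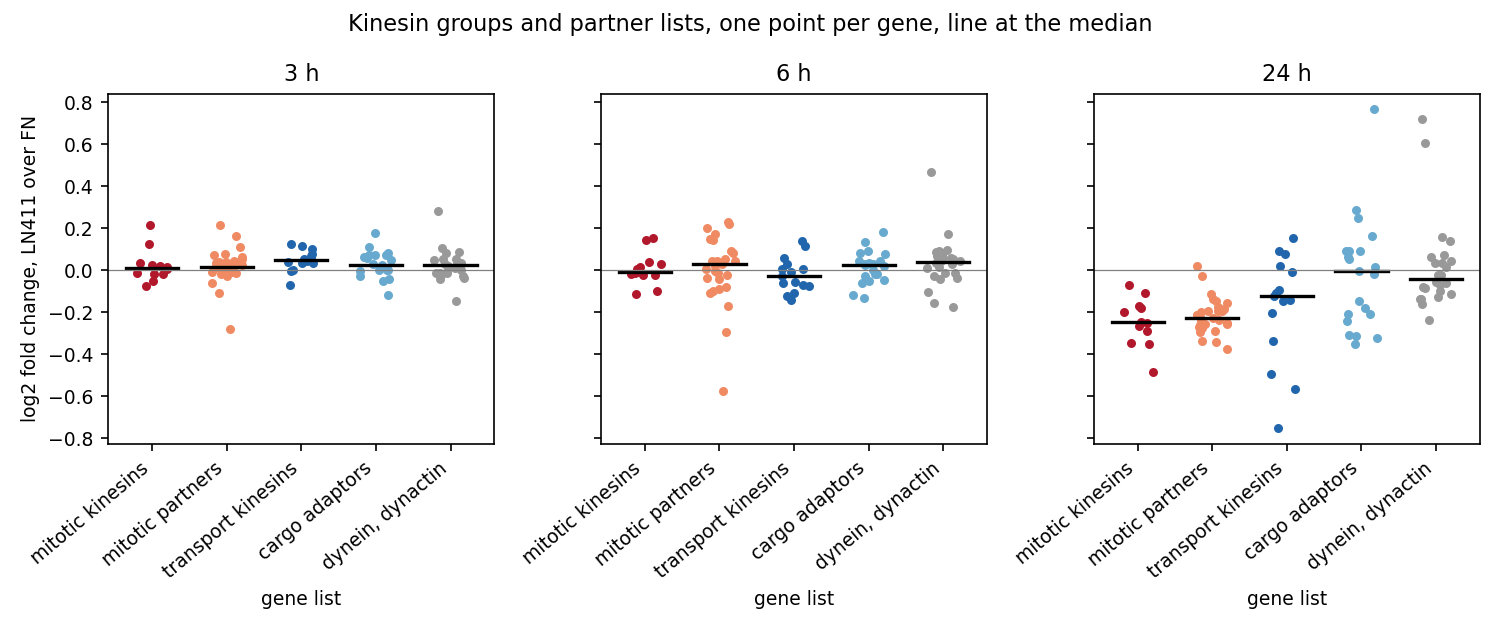
Log2 fold changes of LN411 over FN (y axis) for mitotic and transport kinesins and their partner lists (x axis), in one panel each for 3, 6 and 24 h, with one point per gene and a line at the median. The medians of the mitotic kinesins and of their partners lie near 0 at 3 and 6 h, though single partners run from -0.58 to 0.23 at 6 h. At 24 h the medians are -0.25 and -0.23, with 1 partner above 0.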

How the data were processed

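The data are RNA sequencing of 18 samples (6 groups of 3, described as biological replicates). According to the paper and the labels, the authors aligned reads with STAR 2.7.2d to hg38 with GENCODE v32, counted per gene and compared LN411 with FN by DESeq2 1.34.0; the model formula and strand setting are not given in the sources used here. The deposited table holds these comparisons and no values per sample. Its columns are the authors' own results, and this text rests on them throughout: the deposited mean normalized count is a signal averaged over all samples, the deposited fold change and SE are log2 values, the deposited Wald statistic is a score, and the deposited p-value is two-sided. No counts were refitted, so the calls are not an independent repeat of the authors' test.

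Wald p-values were recomputed and adjusted by Benjamini-Hochberg over the genes with a deposited adjusted p. Intervals are 95% normal intervals. Times were compared by the difference of log2 fold changes over the root of the summed squared SEs, adjusted over all genes listed at both, which takes the times as independent. Transcript lengths and exon overlaps came from GENCODE v44. Full statistics were given for the KIF5, KIF1 and KIF3 genes, kinesins called at 3 or 6 h or, at 24 h, with a log2 change of 0.5 or more in size, and the 3 smallest p-values per role, and of each partner list the 3 smallest p-values. Further genes were named after their values were seen. The members, roles and lists were chosen with earlier results of these data known. Alternatives were a stricter threshold, other filters, a t distribution, a fold limit, trends with GC content and transcript length subtracted (25 bins, 3 rounds) and another role assignment. The scripts ran under scipy 1.17.1, pandas 2.3.3 and numpy 2.4.6 in Python 3.11.15 and were tested on simulated data.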

Additional observations from a re-analysis of the deposited data

Results flagged for a closer look

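The effect of LN411 differed between times by a test of the difference for the following kinesin genes, given as the later minus the earlier log2 fold change. From 6 to 24 h the differences were 2.23 for *KIF19*, -0.57 for *KIF1A*, -0.40 for *KIF20A*, -0.28 for *KIF2A*, -0.63 for *KIF5C* and -0.61 for *KIFC3*. From 3 to 24 h they were 1.71 for *KIF19*, -0.68 for *KIF1A*, -0.47 for *KIF20A*, -0.46 for *KIF21B*, -0.47 for *KIF23*, -0.46 for *KIF26A*, -0.56 for *KIF5C*, -0.25 for *KIF7*, -0.46 for *KIFC2* and -0.79 for *KIFC3*. Both sets share the 24 h samples.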

How the results depend on the processing

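The count of kinesins called at 24 h was 19, and it was 11 at an adjusted p under 0.01, 11 with a t distribution and 12 with a log2 fold limit of 0.25. The 11 under the stricter threshold and the 11 with the t distribution were all among the 19. The count at 6 h was 1, and it was 0 under these 3 settings and 2 with GC content and length trends removed. The 6 mitotic calls became 2 at an adjusted p under 0.01 and 2 with a t distribution, and the 1 transport gene called higher became 0 with the fold limit and 0 with the other role assignment, which counts the KIF3 genes with the cilium. The differences between 6 and 24 h numbered 3 in place of 6 under both the stricter threshold and the t distribution, and those between 3 and 24 h numbered 4 and 3 in place of 10. With GC content and length trends removed the sign turned, with no call before or after, for *KIF26A* (-0.013), *KIF27* (0.018) and *KIF5B* (0.0074) at 3 h, for *KIF18B* (-0.0045), *KIF1B* (0.026), *KIF3B* (0.0057), *KIF7* (-0.022) and *KIFC2* (-0.013) at 6 h, and for *KIF1B* (0.036) at 24 h. *KIF5B* at 24 h was called with one filter (adjusted p = 0.0490) and with these trends removed (adjusted p = 0.0474), which made 7 transport kinesins called lower in place of 6. The cause of these changes was not tested. No paired analysis was possible because values per sample were not used here, and for the same reason other normalizations, count filters, other tools and fits without single replicates were not run. Precision is limited for low genes such as *KIF5A*, *KIF17* and *KIF6*.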
